A study of Mus musculus with 12 samples.

Results

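The livers compared here came from female and male mice on chow, 3 of each sex and 6 of the 12 livers of a study of simvastatin, and were chosen as the ones whose labels name chow and no drug. All were young adult C57BL/6J, an inbred laboratory strain, and ate the study's chow for 4 weeks, and the labels name no transgene, deletion or other agent for them. The other 6 livers came from 3 females and 3 males of the same strain that ate chow with simvastatin, an inhibitor of cholesterol synthesis, at 0.1 g/kg for 4 weeks, and the difference between the sexes on that diet is given beside the one on chow. The labels give all 12 livers the same diet code, which the study's methods give only to the chow with simvastatin, so the groups here rest on the words of the labels and not on that code. Poly(A) RNA was sequenced and reads were counted per gene. Of the 11968 genes in the count table, the 11584 on autosomes are described, so that genes of the X and Y chromosomes and of mitochondria do not enter.

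The liver is among the organs with the largest known differences between the sexes in rodents. Male rodents release growth hormone in separated pulses and females release it more evenly, and hepatocytes read the pattern through the growth hormone receptor and the transcription factor STAT5B, with repressors such as CUX2 in females and BCL6 in males acting beside it. The best known outputs are cytochrome P450 enzymes and sulfotransferases that process steroids and drugs, and the major urinary proteins, which males secrete as carriers of pheromones.

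The total count per chow liver lay between 46066381 and 60048292, at which 3 counts amount to between 0.05 and 0.0651 CPM, the usual unit of a count relative to the size of its library, a limit of counting error only. The labels of sex were checked on genes that are not reported further: Xist lay between 312 and 479 CPM in the female chow livers and between 0.557 and 0.601 CPM in the males, and the Y gene Ddx3y between 0.210 and 0.414 CPM in females and between 60.3 and 64.4 CPM in males. Albumin took 5.71% to 10.5% of the counts of a chow liver, and the 12 hepatocyte markers summed to between 115302 and 152732 CPM in females and between 96678 and 149569 CPM in males. These are whole livers, in which fewer cells of a type and less RNA per cell cannot be told apart. The 3 livers of a group were separate mice. The time of day and the feeding state at collection are not given in the sources used here.

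On chow, 1203 of 11584 autosomal genes (10.4%) differed between female and male livers in edgeR's quasi-likelihood test at an adjusted p-value under 0.05, which is called the test below. Of these, 674 (5.82% of the genes) were higher in females and 529 (4.57%) higher in males. A difference is given as the fitted log2 ratio of female to male with its standard error (SE), and a level as TMM-normalized CPM, in which libraries are scaled by a trimmed mean of log ratios. At least 2-fold, 324 genes were higher in females and 203 in males, and at least 10-fold 46 and 36. The median log2 difference of all autosomal genes was -0.01. With libraries scaled by their total counts alone that median was -0.05 and the calls split into 534 higher in females and 644 higher in males, so which sex had more calls rests on the scaling. For 4369 genes (37.7%) the 3 livers of one sex all lay above the 3 of the other. After leaving out any 1 of the 6 livers, 496 genes (4.28%) were called every time, 269 higher in females and 227 in males. Genes that belong to this group are called stable below.

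Ranked by p-value among genes over 10 CPM in one sex, 9 of the first 10 genes of females encode enzymes and transporters of steroids, fatty acids and drugs. Cyp3a41a (GRCm38 chr5:145694049-145720136), a cytochrome P450 of the subfamily that oxidizes many drugs and steroids, was at 200.3, 175 and 198 CPM in the 3 female livers and at 0.261, 0.398 and 0.282 CPM in the males, a log2 difference of 9.23 (SE 0.23, adjusted p = 3.45e-10). No liver of either sex came near the range of the other. Cyp2a4 (GRCm38 chr7:26307169-26315088), a steroid hydroxylase, was at 1534, 2163 and 2240.3 CPM in females and 4.24, 3.96 and 3.30 CPM in males (log2 difference 9.01, SE 0.29, adjusted p = 2.93e-09), so it went from an abundant P450 gene in one sex to a few CPM in the other. The sulfotransferase Sult2a2, which attaches sulfate to steroids and bile acids, was at 155, 162 and 251 CPM and 0.205, 0.302 and 0.207 CPM (9.61, SE 0.34, adjusted p = 4.42e-09). Hao2, a peroxisomal hydroxyacid oxidase, was at 23.8, 28.8 and 42.4 CPM in females and 0.0934, 0.0796 and 0.113 CPM in males, and Cyp2b9, a P450 of the subfamily induced by phenobarbital, at 339.8, 289 and 500.3 CPM and 2.04, 1.46 and 3.45 CPM. Their log2 differences were 8.35 (SE 0.43) and 7.35 (SE 0.41). The organic anion transporters Slc22a26 (6.62, SE 0.37) and Slc22a27 (5.98, SE 0.35), together with Cyp3a16 (8.51, SE 0.43) and Cyp3a41b, completed the group but for Ifi27l2b, an interferon-inducible gene that was at 18.6, 25.4 and 19.4 CPM in females and 2.26, 2.66 and 2.85 CPM in males (3.03, SE 0.18). Cyp3a41b had 3 reads in all over the 3 male livers against 1704 over the females, a ratio, after scaling to library size, of 627 (95% exact interval 214 to 3043, counting error only). Of these genes at least Cyp3a41a, Cyp3a41b, Cyp3a16 and Sult2a2 passed the filter on low counts through female livers alone, which favours a call. In the list that holds Hao2 and the Cyp4a12 genes, 1 gene of females and 1 of males passed through their own sex alone.

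Among the 10 corresponding genes of males, 4 encode major urinary proteins and 3 are cytochrome P450 genes. Hsd3b5 (GRCm38 chr3:98618634-98630252), a ketosteroid reductase, was at 184, 151 and 130.0 CPM in males and 0.917, 1.27 and 1.07 CPM in females, a log2 difference of -7.16 (SE 0.26, adjusted p = 4.42e-09). Mup20 (GRCm38 chr4:62050234-62054158), also called darcin, the urinary protein that attracts females, was at 4814, 3910.1 and 3419 CPM in males and 25.1, 39.4 and 28.6 CPM in females (-7.03, SE 0.30, adjusted p = 2.03e-08). The arachidonic acid hydroxylases Cyp4a12a and Cyp4a12b were at 140.1, 207 and 182 CPM and 70.8, 99.7 and 67.1 CPM in males, and in females at 0.745, 0.916 and 1.33 CPM and 0.191, 0.136 and 0.218 CPM. The steroid hydroxylase Cyp2d9 was at 1007, 1182 and 1235 CPM in males and 41.8, 25.2 and 41.3 CPM in females (-4.98, SE 0.25), and Elovl3, which elongates long saturated and monounsaturated fatty acids, at 133, 91.2 and 66.1 CPM and 0.974, 0.546 and 0.632 CPM (-7.07, SE 0.37). The list ended with Susd4, a complement inhibitor, at 20.3, 21.2 and 17.0 CPM in males and 0.936, 0.643 and 0.523 CPM in females, and with Mup7, Mup14 and Mup21, described below. Of 26 tested genes that textbooks give as higher in female liver 23 were called in that direction, and of 26 given as higher in male liver 22. Of these calls 10 in females and 2 in males are of genes that passed the filter on low counts through the livers of that sex alone, which favours a call. In none of the first-named 20 genes did the sexes overlap, and all 20 were stable. That no liver overlaps was part of how these 20 genes were picked.

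**Figure D1:**
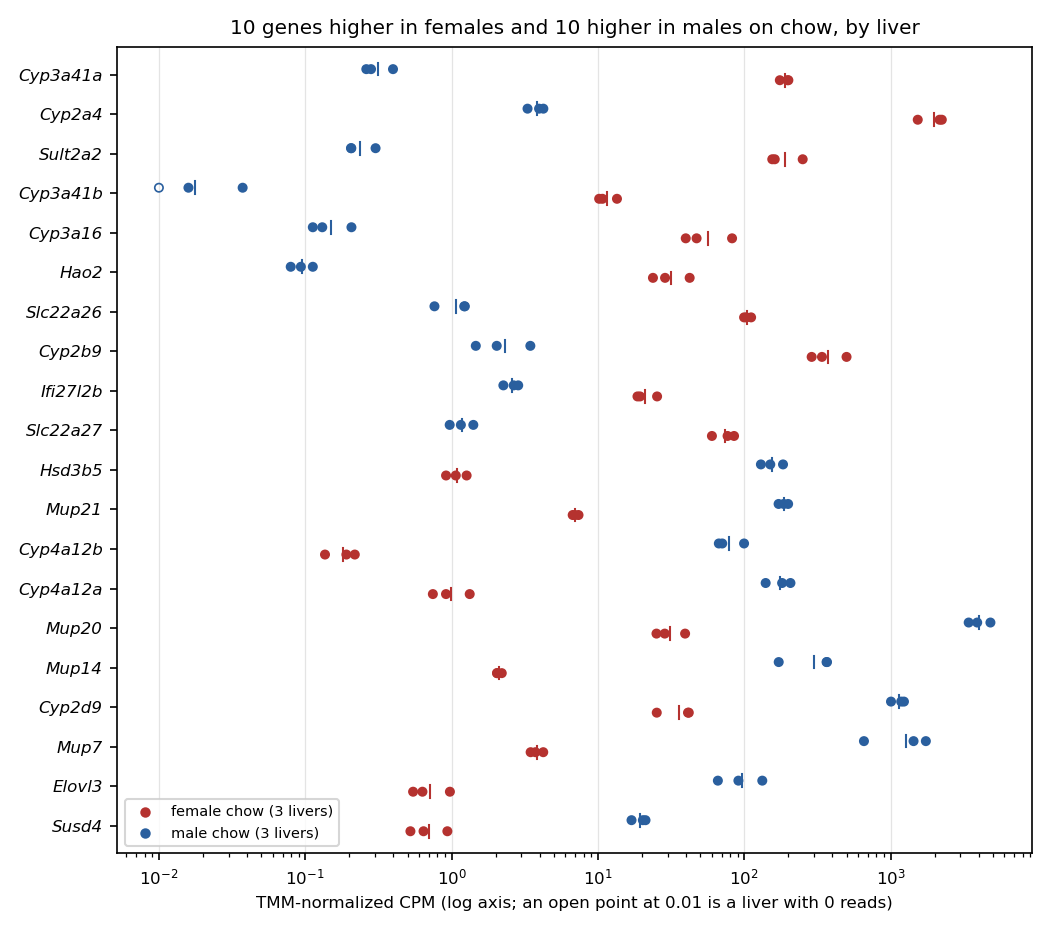
TMM-normalized CPM on a log axis for the 10 genes higher in females and the 10 higher in males with the smallest p-values, each point a liver (red, 3 female chow livers; blue, 3 male chow livers) and each vertical bar the group mean. The gap between the sexes is wide for Sult2a2, Cyp3a41a, Cyp2a4 and Cyp4a12b and narrowest for Ifi27l2b (18.6, 25.4 and 19.4 CPM against 2.26, 2.66 and 2.85 CPM), and the open point is the 1 male liver with 0 reads on Cyp3a41b.

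Several of these genes belong to families whose members lie close together on a chromosome. The region 250 bases before to 50 bases after the annotated start (RefSeq, GRCm38.p6) is shown for 3 Cyp3a genes of females, 3 Mup genes of males, and A1bg, a plasma protein gene of females that holds both motifs searched. Capitals mark matches to TTCNNNGAA, the letters that STAT5 proteins prefer, or to ATTGAT, the core read by the liver factor HNF6, each searched on both strands with no overlap between them here. The windows are chr5:145720087-145720386 (minus strand) for Cyp3a41a, chr5:145584681-145584980 (minus) for Cyp3a41b, chr5:145469674-145469973 (minus) for Cyp3a16, chr4:60070426-60070725 (minus) for Mup7, chr4:61303949-61304248 (minus) for Mup14, chr4:62150792-62151091 (minus) for Mup21 and chr15:60921221-60921520 (minus) for A1bg.
Cyp3a41a: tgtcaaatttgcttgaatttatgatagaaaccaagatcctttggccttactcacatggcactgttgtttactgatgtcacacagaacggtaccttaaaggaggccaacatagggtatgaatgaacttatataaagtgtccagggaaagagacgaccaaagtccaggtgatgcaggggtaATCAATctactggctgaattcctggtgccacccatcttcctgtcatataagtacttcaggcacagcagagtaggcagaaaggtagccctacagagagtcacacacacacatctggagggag
Cyp3a41b: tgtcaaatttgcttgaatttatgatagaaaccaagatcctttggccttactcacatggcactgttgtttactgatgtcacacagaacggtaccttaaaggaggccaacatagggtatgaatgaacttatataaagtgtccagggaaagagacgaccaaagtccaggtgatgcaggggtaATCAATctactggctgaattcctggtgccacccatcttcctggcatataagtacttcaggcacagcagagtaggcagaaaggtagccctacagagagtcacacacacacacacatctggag
Cyp3a16: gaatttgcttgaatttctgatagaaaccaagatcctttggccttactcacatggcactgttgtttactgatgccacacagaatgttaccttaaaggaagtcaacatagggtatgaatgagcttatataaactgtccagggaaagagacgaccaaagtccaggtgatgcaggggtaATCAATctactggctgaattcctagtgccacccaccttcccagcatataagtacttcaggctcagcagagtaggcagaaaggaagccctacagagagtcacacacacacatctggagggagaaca
Mup7: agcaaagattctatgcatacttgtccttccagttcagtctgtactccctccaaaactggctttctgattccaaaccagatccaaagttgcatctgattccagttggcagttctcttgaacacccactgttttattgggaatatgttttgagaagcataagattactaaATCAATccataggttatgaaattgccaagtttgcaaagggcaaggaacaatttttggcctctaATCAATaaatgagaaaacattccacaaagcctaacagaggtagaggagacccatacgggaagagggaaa
Mup14: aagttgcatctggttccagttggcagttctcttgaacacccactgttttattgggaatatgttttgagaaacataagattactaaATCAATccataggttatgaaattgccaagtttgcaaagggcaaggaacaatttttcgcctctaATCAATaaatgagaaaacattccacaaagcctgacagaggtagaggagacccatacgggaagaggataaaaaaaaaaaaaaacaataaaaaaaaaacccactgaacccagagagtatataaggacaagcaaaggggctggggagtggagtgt
Mup21: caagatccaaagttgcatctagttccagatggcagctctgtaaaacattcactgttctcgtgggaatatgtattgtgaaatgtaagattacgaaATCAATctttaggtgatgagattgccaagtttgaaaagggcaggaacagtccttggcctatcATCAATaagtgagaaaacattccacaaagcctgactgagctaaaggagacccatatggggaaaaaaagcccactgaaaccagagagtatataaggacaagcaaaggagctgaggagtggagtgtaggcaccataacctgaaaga
A1bg: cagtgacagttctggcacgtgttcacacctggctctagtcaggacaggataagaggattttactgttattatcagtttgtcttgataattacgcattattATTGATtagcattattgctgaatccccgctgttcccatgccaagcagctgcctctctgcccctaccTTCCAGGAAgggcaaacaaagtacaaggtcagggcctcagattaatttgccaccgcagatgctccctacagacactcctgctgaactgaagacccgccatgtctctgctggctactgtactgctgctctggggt

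The windows of Cyp3a41a and Cyp3a41b shared 292 of 300 bases, and those of Cyp3a41a and Cyp3a16 shared 280 of 296 bases when shifted by 4. The window of Mup7 matched that of Mup14 at 211 of 217 bases once shifted by 83, so that the annotated start of Mup7 lies upstream of the place that corresponds to the start of Mup14. Mup7 and Mup21 shared 140 of 226 bases at the best shift. No gaps were allowed in any of these comparisons, and an inserted or missing base lowers such a count. The capitals are not spaced alike in these 2 windows, beginning 82 and 19 bases before the start in Mup7 and 156 and 94 in Mup21. How alike the 2 windows are with gaps allowed was not measured. Letters ATTGAT, here as ATCAAT, began 71 bases before the start in Cyp3a41a and Cyp3a41b and 75 before it in Cyp3a16, and Mup7, Mup14 and Mup21 each held a pair of them. A1bg held TTCCAGGAA from 84 to 76 bases before its start. Of all 32851 windows of the annotation, 8.30% held TTCNNNGAA and 7.54% held ATTGAT, and of the 11636 windows of autosomal genes tested 6.98% and 4.37%. In the 303 windows of genes at least 2-fold higher in females the shares were 7.26% and 6.27%, and in the 206 windows of genes at least 2-fold higher in males 6.31% and 13.1%. All 11 windows of Mup genes among the latter held ATTGAT, and without them the share was 8.21%. A window was found for 9044 of the 11584 genes, and a match of letters is a description of the sequence and not a site of binding.

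Genes of drug metabolism differed between the sexes in both directions. Of 185 genes in 13 lists, 154 were tested, and 70 of them (45.5%, beside 10.4% of all autosomal genes) were called, 38 higher in females and 32 higher in males. Of the 70, 54 were stable. The median log2 difference of the 154 genes was -0.04, so neither sex had the higher level throughout. Of the other 31 genes, 24 were below the filter on low counts and 7 had no read or no matching symbol. The filter keeps genes over 1 CPM in at least 6 livers, so a gene that only one sex uses passes through the 6 livers of that sex: this was so for 12 genes of females and 2 of males among the 154, and without these 14 the calls were 26 higher in females and 31 in males.

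**Figure D2:**
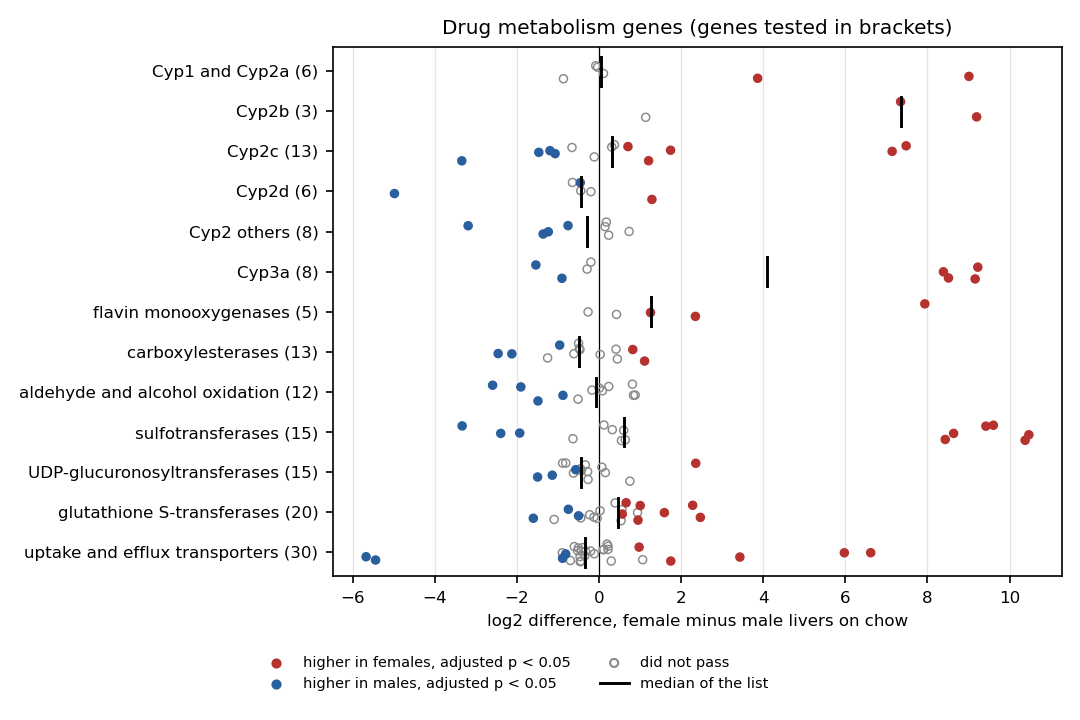
The log2 difference, female minus male on chow, of each of the 154 drug metabolism genes by list, filled red or blue where the gene passed the test and open grey where it did not, with a black bar at the median of each list. Sulfotransferases, Cyp3a and Cyp2b genes reach furthest towards females and transporters furthest towards males (-5.67, Slco1a1), and the points of Sult2a5, Sult3a2 and Cyp3a41b, with 3 or fewer male reads, depend on the fitting of near-zero counts.

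Cytochrome P450 genes, which oxidize steroids, fatty acids and drugs, differed in both directions. Of the 55 tested in the drug lists and the Cyp4 family, 32 were called (58.2%, beside 10.4% of all autosomal genes), 14 higher in females and 18 in males. Of 3 tested Cyp2b genes 2 were called, both higher in females: Cyp2b13, at 57.5, 50.5 and 114 CPM in females and 0.131, 0.143 and 0.0939 CPM in males (log2 difference 9.20, SE 0.73, adjusted p = 7.52e-06), and Cyp2b9, given above. Cyp2b13 passed the filter through female livers alone, which favours a call. Within Cyp2a, Cyp2a22 followed Cyp2a4 with 74.8, 53.9 and 123 CPM in females and 3.66, 6.11 and 7.53 CPM in males (3.86, SE 0.49). Of the 8 Cyp3a genes, 4 were higher in females (Cyp3a41a, Cyp3a41b, Cyp3a16 and Cyp3a44, the last named after its values were seen) and 2 were higher in males. The 4 genes of females all passed the filter through female livers alone. Cyp3a25, an abundant form in male liver, was at 749, 546 and 640.1 CPM in males and 189, 218 and 259.8 CPM in females (-1.54, SE 0.20, adjusted p = 0.000416). Summed over these 4 genes, a sum whose direction the choice of its members fixes, the level was 353, 405 and 360 CPM in females and 0.915, 0.891 and 0.657 CPM in males.

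Cyp2c genes, which hydroxylate steroids and epoxidize arachidonic acid, went both ways, although all 13 tested genes lie on chromosome 19. Of 13 tested, 5 were higher in females and 4 in males. Cyp2c69 was at 153, 183 and 252 CPM in females and 2.02, 0.844 and 0.432 CPM in males (7.48, SE 0.56, adjusted p = 4.64e-06), and Cyp2c40 at 203, 206 and 265 CPM and 3.01, 1.02 and 0.77 CPM (7.14, SE 0.57). In the other direction Cyp2c54 was at 307, 286 and 317 CPM in males and 30.7, 29.8 and 29.2 CPM in females (-3.34, SE 0.36), and Cyp2c50 at 517, 568 and 548 CPM and 225, 158 and 208 CPM (-1.47, SE 0.27). The sum over the 13 genes lay between 2486 and 3284 CPM in females and between 3138 and 3614 CPM in males, ranges that overlap (exact permutation p = 0.2, two-sided, where 3 against 3 livers allow no less than 0.1). Single members thus differed by far more than the total did. Their reads may be split uncertainly, since members of the family are close in sequence.

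Of 8 further Cyp2 genes 4 were called, all higher in males. Cyp2e1, which oxidizes ethanol and paracetamol, was at 8566, 9296 and 8062 CPM in males and 3507, 3036 and 3553 CPM in females (-1.36, SE 0.20, adjusted p = 0.00139). Cyp2f2, which activates naphthalene, was at 956, 1024 and 1199 CPM and 406, 332 and 612 CPM (-1.24, SE 0.25), and Cyp2u1, a fatty acid hydroxylase, at 40.6, 42.8 and 41.3 CPM and 5.62, 4.06 and 3.99 CPM (-3.19, SE 0.21). In the Cyp2d subfamily, with 1 gene called higher in females and 2 in males, the former was Cyp2d40, at 182, 214 and 161 CPM against 87.6, 72.3 and 68.0 CPM (1.29, SE 0.27). Cyp2e1, Cyp2f2, Cyp2u1 and Cyp2d40 were stable.

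Outside the P450 family, 3 of 5 flavin monooxygenases, which oxidize nitrogen and sulfur atoms of drugs, were called, all higher in females. Among them Fmo2 was at 74.4, 77.2 and 89.7 CPM in females and 16.2, 12.2 and 19.0 CPM in males (2.35, SE 0.30, adjusted p = 0.000398), and Fmo4 differed by 1.25 (SE 0.19). Of 12 genes of aldehyde and alcohol oxidation 4 were called, all higher in males. Aox3, the hepatic aldehyde oxidase, was at 389, 519.8 and 652 CPM in males and 94.9, 73.2 and 90.8 CPM in females (-2.59, SE 0.50, adjusted p = 0.00639), Adh4 at 168, 164 and 156 CPM and 40.0, 51.2 and 39.4 CPM, and Aldh1a1, which makes retinoic acid, at 1449, 1595 and 1237 CPM and 467, 432 and 629 CPM. Carboxylesterases, which cleave ester drugs and lipids, went both ways: Ces3a was at 1719, 2189 and 1842 CPM in males and 336, 297 and 415 CPM in females (-2.46, SE 0.21), Ces3b and Ces2a were also higher in males, and Ces2g (1.11, SE 0.12) and Ces2e (0.82, SE 0.16) were higher in females.

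Conjugating enzymes went both ways too. Of 15 tested sulfotransferases 6 were higher in females and 3 in males (60% in all, beside 10.4% of all autosomal genes). Sult3a2 had 513 reads over the 3 female livers and 0 over the males, at least 189-fold higher in females against a limit of 3 reads over the 3 male livers. Sult2a5 had 1597 reads in females and 1 in males. Sult2a8, which sulfates bile acids in the mouse, went the other way, with 1145, 1148 and 778 CPM in males and 81.8, 116 and 107 CPM in females (-3.33, SE 0.39, adjusted p = 0.000203). As a sum, the 6 Sult2a genes reached 363, 411 and 667 CPM in females and 1150.2, 1152 and 781 CPM in males, with no overlap. Total reads on the family were higher in males, although 4 of its 6 members were higher in females. All 6 of the sulfotransferases higher in females passed the filter through female livers alone.

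Glutathione S-transferases, which detoxify electrophiles, had 7 members higher in females and 3 higher in males of 20 tested, 4 of these 10 being stable. Gstm3 was at 111, 98.4 and 118 CPM in females and 25.2, 17.5 and 16.5 CPM in males (2.47, SE 0.42), Gstm2 at 189.5, 185 and 143 CPM and 65.4, 53.0 and 53.2 CPM, and Gstp3 differed by 2.28 (SE 0.25). Gstp1, the most studied member of its class, was higher in males at 417, 519 and 502 CPM against 132, 183 and 160.0 CPM (-1.60, SE 0.21, adjusted p = 0.000456). The 7 Gstm genes together lay between 1639 and 1774 CPM in females and between 950 and 1096 CPM in males, with no overlap. Of 15 tested glucuronosyltransferases, Ugt1a5 was higher in females, and Ugt2b1, Ugt3a1 and Ugt2b34 in males. Ugt2b1, which glucuronidates bisphenols and steroids, was at 444, 586 and 323 CPM in males and 146, 169.5 and 165 CPM in females (-1.50, SE 0.21). Ugt1a5 shares its last exons with the other Ugt1a genes, so its reads are uncertain. Ugt2b34 (-0.57, adjusted p = 0.0499) lost its call without any 1 of the 6 livers (adjusted p up to 0.148).

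Of 30 uptake and efflux transporters 5 were higher in females and 4 in males (30% in all, beside 10.4% of all autosomal genes). Slco1a1, an uptake carrier of bile acids and steroid conjugates, was at 773, 751 and 634 CPM in males and 16.6, 22.0 and 3.66 CPM in females (-5.67, SE 0.56, adjusted p = 5.94e-05). Within the Slc22 group of organic anion carriers on chromosome 19, Slc22a26, Slc22a27 and Slc22a29 (3.43, SE 0.33) were higher in females and Slc22a28 in males, at 7.73, 8.77 and 6.33 CPM against 0.229, 0.214 and 0.0654 CPM (-5.44, SE 0.44). Slc22a30, named after its values were seen, was also called higher in males (-0.81, SE 0.20, adjusted p = 0.0224), a call lost without the first or the third female or the first or second male liver (up to 0.0922). The canalicular pump Abcg2 was at 75.5, 97.6 and 70.5 CPM in males and 40.5, 43.4 and 47.8 CPM in females (-0.89, SE 0.15, adjusted p = 0.00288).

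Among genes of secreted proteins, the major urinary proteins were called in males only and acute phase proteins in females only. Of 224 genes in 9 lists, 206 were tested and 54 (26.2%, beside 10.4% of all autosomal genes) were called, 20 higher in females and 34 in males, 39 of them stable. Mup genes made up 15 of the 54. The lists also hold the secretory machinery and membrane proteins such as Ghr and Rtn4, which are counted under the name of secreted proteins throughout. Of the called genes 6 had passed the filter through the livers of one sex alone, 4 of them Mup genes of males. The median log2 difference of the 206 genes was -0.01. The secretory machinery itself had 1 called gene of 31, Ssr2 (0.38, SE 0.10), which lost its call without any 1 of the 6 livers (adjusted p up to 0.121).

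Of 16 tested Mup genes 15 were higher in males, all of them stable. Mup7 was at 1743, 1436 and 658 CPM in males and 3.74, 3.47 and 4.23 CPM in females (-8.39, SE 0.44, adjusted p = 1.12e-07), Mup14 at 368, 365 and 172 CPM and 2.04, 2.20 and 2.05 CPM, and Mup21 at 172, 199.5 and 186 CPM and 6.97, 6.73 and 7.37 CPM. Mup11 had the largest difference of the family, -8.50 (SE 0.51). In Mup7 and Mup14 the third male liver had the lowest level of its group. Mup18 did not pass the test: its levels were 5.20, 7.82 and 13.9 CPM in females and 35.0, 22.1 and 8.60 CPM in males, and the sexes overlapped (adjusted p = 0.148). Mup genes are known as a family close in sequence, so reads can be split between them (the transcripts were not compared here). The sum over the 16 genes does not depend on a split among those 16. Reads given to the 5 Mup genes below the filter, or to no gene, are not in it. The sum was 1445, 2147 and 1713 CPM in females and 17648, 14838 and 11668 CPM in males, a ratio of means of 8.32. Females still made urinary protein RNA, mostly from Mup3, at 1240.1, 1884 and 1450.4 CPM.

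**Figure D3:**
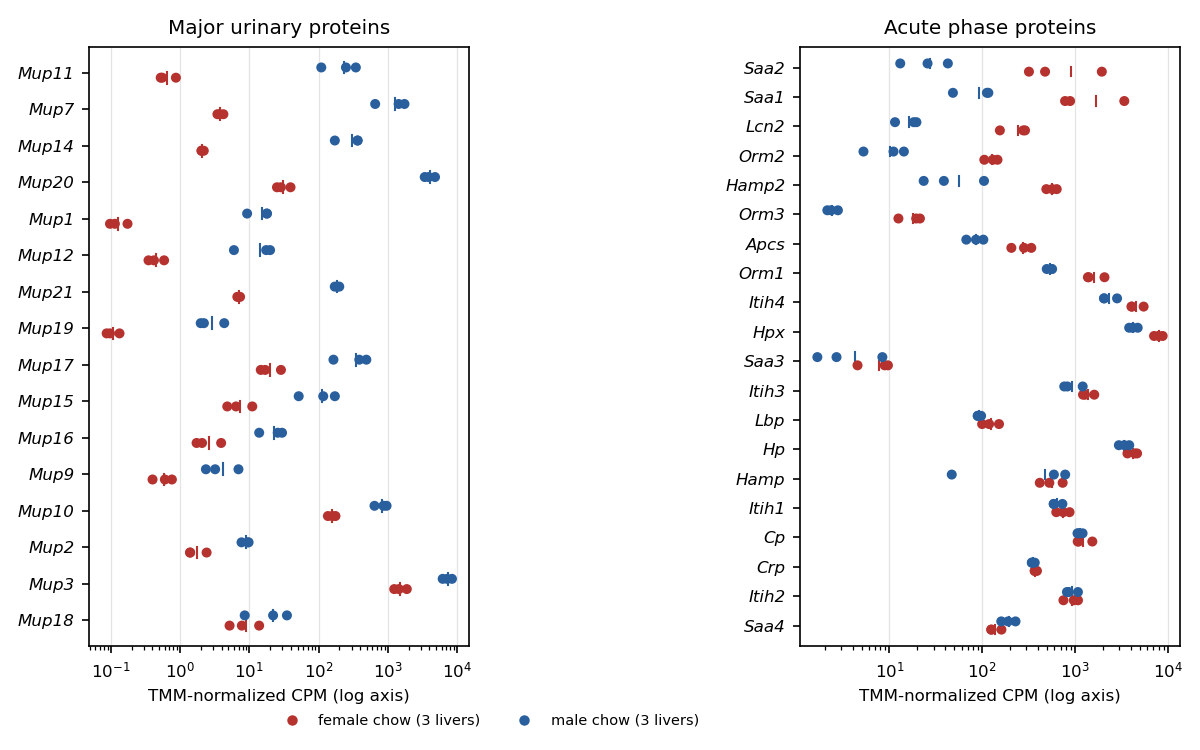
TMM-normalized CPM on log axes for the 16 tested Mup genes and the 20 acute phase genes, each point a chow liver (red, 3 females; blue, 3 males) and each bar the group mean, ordered by the log2 difference. The sexes are apart in 15 Mup genes and overlap in Mup18, and among acute phase genes they are apart at the top of the order (Saa2, Saa1, Lcn2, Orm2) and overlap towards its end.

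Acute phase proteins, which hepatocytes release in inflammation, were called in 9 of 20 cases, all higher in females and 8 of them stable. Saa2 and Saa1, serum amyloid genes, were at 476, 1946 and 319 CPM and 885, 3398 and 782 CPM in females and at 13.1, 42.6 and 25.7 CPM and 48.3, 112 and 116 CPM in males. Their log2 differences were 5.07 (SE 0.78, adjusted p = 0.00169) and 4.19 (SE 0.60, adjusted p = 0.00106). The second female liver was the highest in both genes, and the other female livers still lay well above the highest male. The iron and siderophore binding protein Lcn2 was at 289, 277 and 155 CPM in females and 11.5, 19.5 and 18.3 CPM in males (3.87, SE 0.36). By sum, Saa1 and Saa2 together reached 1361, 5344 and 1100.5 CPM in females and 61.4, 155 and 142 CPM in males, and the 3 orosomucoid genes 1496, 2244 and 1553 CPM in females and 574, 571 and 509 CPM in males. Haptoglobin (Hp, 0.32, adjusted p = 0.458), another classic member of the response, did not pass the test. Neutrophils also make Lcn2, and of the other neutrophil markers 6, S100a8 and S100a9 among them, were below the filter and Csf3r did not pass the test, while the sum over the Kupffer cell markers was 836 to 1004 CPM in females and 448 to 680 CPM in males. The part of these cells in the acute phase result was not tested.

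Further plasma proteins differed in a few genes each. Serpina1e, a form of alpha-1-antitrypsin, was at 2030.1, 2614 and 2599 CPM in males and 187, 86.9 and 36.2 CPM in females (-4.55, SE 0.49, adjusted p = 0.000119), whereas the 5 Serpina1 genes together, between which reads can be split, lay between 8253 and 9864 CPM in females and between 13873 and 15348 CPM in males. Among 5 complement genes higher in males were parts of the membrane attack complex: C6 was at 127, 181 and 173 CPM against 25.4, 23.2 and 24.0 CPM in females (-2.73, SE 0.26) and C8b at 304, 339 and 346 CPM against 145, 144 and 120.3 CPM (-1.27, SE 0.22). The protease inhibitor Mug1 was higher in males (-2.14, SE 0.35), and Gas6, the vitamin K dependent ligand of TAM receptors, higher in females at 219, 164 and 138 CPM against 25.8, 36.7 and 37.1 CPM (2.39, SE 0.22). A1bg, whose promoter is shown above, was at 62.1, 63.3 and 134 CPM in females and 0.187, 0.159 and 0.0939 CPM in males (9.17, SE 0.71, adjusted p = 5.4e-06). It passed the filter through female livers alone, which favours a call. Of 25 complement and 25 coagulation genes tested, 6 (24%) and 5 (20%) were called, beside 10.4% of all autosomal genes.

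Of 23 tested apolipoprotein and lipoprotein assembly genes 3 were called (13%, near the 10.4% of all autosomal genes), and none of them was stable. Apoa1, the main protein of HDL, was at 9229, 7982 and 9427 CPM in males and 6008, 5139 and 4024 CPM in females (-0.81, SE 0.18, adjusted p = 0.0136), a call lost without the first or the third male liver (adjusted p up to 0.0558). Hepatic lipase, Lipc, was higher in males (-0.71, adjusted p = 0.0281) and kept its call only without the third female liver (otherwise up to 0.109). Apoa4 had 1890.3, 1542 and 1666 CPM in females and 1802, 2174 and 2459.8 CPM in males and did not pass the test (-0.34, adjusted p = 0.424). Alb, the albumin gene, did not pass it either, at 0.27 (SE 0.24, adjusted p = 0.547).

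Secreted growth factors and their binding proteins included the leptin receptor, whose soluble form hepatocytes release. Lepr was at 105, 118 and 96.8 CPM in females and 9.45, 7.72 and 11.5 CPM in males (3.48, SE 0.26, adjusted p = 4.75e-06), and Igfbp3, a carrier of IGF1, at 22.0, 22.6 and 24.0 CPM and 8.68, 10.6 and 10.6 CPM (1.20, SE 0.20). Igf1, the chief hepatic target of growth hormone, was higher in males, at 584, 545 and 525 CPM against 311, 314 and 363 CPM (-0.74, SE 0.14, adjusted p = 0.00462). Fgf21, a fasting hormone, had 1.81, 1.54 and 0.698 CPM in females and 2.26, 1.93 and 1.46 CPM in males, with overlap (-0.47, adjusted p = 0.411). Antisense Igf1os overlaps Igf1, and whether strand was used in counting is not given in the sources used here.

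Genes of intermediary metabolism also differed in both directions. Of 354 genes in 16 lists, 339 were tested and 96 (28.3%, beside 10.4% of all autosomal genes) were called, 51 higher in females and 45 in males. Of the 96, 40 were stable, a share close to the 496 of 1203 over all called genes, and leaving out 1 liver brought the count down to between 48 and 76. Among the 339, 2 passed the filter through one sex alone, and both were called. The median log2 difference of the 339 genes was 0.02. The list with most calls in females was fatty acid synthesis, with 11 of 14 genes, and in males peroxisomal and omega-oxidation, with 13 of 31.

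**Figure D4:**
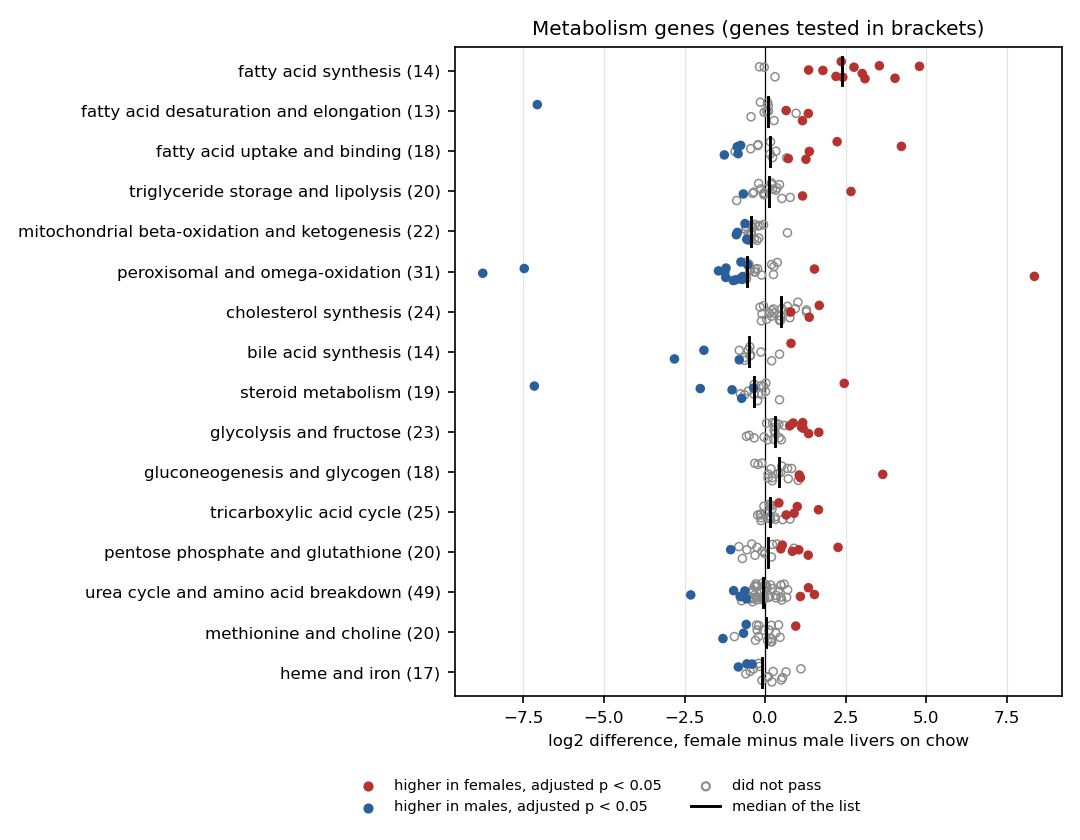
The log2 difference, female minus male on chow, of each of the 339 metabolism genes by list (a gene in 2 lists is drawn in both), filled red or blue where the gene passed the test and open grey where it did not, with a black bar at the median of each list. The fatty acid synthesis list lies mostly on the female side (median 2.39), the 2 oxidation lists have medians of -0.44 and -0.57, and single genes such as Elovl3 (-7.07), Hsd3b5 (-7.16) and Hao2 (8.35) lie far outside their lists.

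Fatty acid synthesis had 11 of 14 genes called, all higher in females, and 5 of these were stable. Elovl6, which elongates palmitate, was at 1442, 1403 and 1091 CPM in females and 89.7, 68.6 and 82.8 CPM in males (4.03, SE 0.61, adjusted p = 0.00164). Fasn, fatty acid synthase, was at 5549, 3136 and 2503 CPM and 321, 246 and 392 CPM (3.54, SE 0.59, adjusted p = 0.00285), and its first female liver had the highest value. Pnpla3, a lipid droplet acylhydrolase induced with lipogenesis, was at 49.4, 61.8 and 28.5 CPM and 2.74, 1.15 and 1.18 CPM (4.79, SE 1.04), a call that was lost without the second or the third male liver (adjusted p up to 0.0623). Single genes of glucose and fructose breakdown were higher in females as well: Pgd, of the NADPH-making pentose phosphate pathway, at 229, 159 and 156 CPM against 35.5, 40.0 and 38.1 CPM (2.26, SE 0.30), Gpi1 of glycolysis at 735, 592 and 698 CPM against 189, 186 and 264 CPM (1.67, SE 0.18), and Tkfc of fructose breakdown (1.18, SE 0.19). Of 23 genes of glycolysis and fructose breakdown 7 were called (30.4%, 4 stable), every one higher in females, beside 10.4% of all autosomal genes. The list of the tricarboxylic acid cycle, which includes pyruvate dehydrogenase and its kinases, had 5 of 25 called (20%, 2 stable), all higher in females. Of these only Mdh2 is an enzyme of the cycle. Pdhb and Dlat belong to pyruvate dehydrogenase, and its kinases Pdk1 and Pdk4 were the 2 stable ones. Of 20 genes of the pentose phosphate pathway and glutathione 6 were higher in females and 1 in males, and 2 of these were stable. Lpin1, a phosphatidate phosphatase of triglyceride synthesis, was at 762, 402 and 317 CPM and 59.2, 49.8 and 125 CPM (2.66, SE 0.54), and of 20 genes of triglyceride storage and lipolysis 3 were called (15%, near the 10.4% of all autosomal genes), 1 of them stable.

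Genes of fatty acid uptake and binding went both ways. Cd36, a fatty acid translocase, was at 206, 176 and 258 CPM in females and 78.2, 109.8 and 78.3 CPM in males (1.27, SE 0.18, adjusted p = 0.000859), and the VLDL receptor Vldlr at 17.0, 16.5 and 24.1 CPM and 3.68, 3.69 and 4.86 CPM (2.23, SE 0.23). Acsl5, which activates long fatty acids, was higher in females by 1.37 (SE 0.27). In males Slc27a2, a very long chain acyl-CoA synthetase, was at 1441, 1663 and 1691 CPM against 654, 517 and 824 CPM in females (-1.26, SE 0.25), and the fatty acid binding protein Fabp1 at 2599.7, 2453 and 2087 CPM against 1271, 1392 and 1334 CPM (-0.84, SE 0.16). Fabp5 was at 543, 586 and 254 CPM in females and 38.1, 15.6 and 20.3 CPM in males (4.23, SE 0.98), a call lost without the second female, or the second or the third male liver (adjusted p up to 0.0736). Of 18 genes in the list 5 were higher in females and 4 in males.

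On chow, genes of fatty acid oxidation were mostly higher in males where they were called. In mitochondria, 5 of 22 genes were called (22.7%, beside 10.4% of all autosomal genes) and all 5 were higher in males, but none was stable. Among them Acadm, a medium-chain acyl-CoA dehydrogenase, was at 323, 347 and 336 CPM in males and 167, 168 and 207 CPM in females (-0.89, SE 0.24, adjusted p = 0.0319). The call of Acadm was lost without any 1 liver but the third female one (adjusted p up to 0.101). Cpt1a, which controls entry into mitochondria, had 399.9, 280.0 and 469.8 CPM in females and 512, 619.7 and 612 CPM in males and did not pass the test (-0.60, adjusted p = 0.149), although its livers did not overlap. Of 31 genes of peroxisomal and omega-oxidation 13 were higher in males and 2 in females (48.4% in all, beside the same 10.4%), and 7 were stable. Beside the Cyp4a12 genes, Acaa1b, a peroxisomal thiolase, was at 571, 827 and 599 CPM in males and 228, 178 and 327 CPM in females (-1.45, SE 0.28, adjusted p = 0.006), and Acot3, a peroxisomal thioesterase, was higher in females (1.53, SE 0.31).

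In sterol metabolism, 3 of 24 cholesterol synthesis genes were called (12.5%, near the 10.4% of all autosomal genes), Sqle, Pmvk and Insig1. They were higher in females and none of them was stable, and the median of the list was 0.48. Sqle lost its call without the first or second female or any male liver (adjusted p up to 0.118), and Pmvk and Insig1 in at least 5 of the 6 fits that leave out a liver (up to 0.127 and 0.17). In bile acid synthesis 1 of 14 genes was higher in females and 3 in males (28.6% in all, beside the same 10.4%). The former was Cyp39a1, an oxysterol hydroxylase (0.80, SE 0.23, adjusted p = 0.0483), a call lost without any female liver or without the first or second male liver (up to 0.15). Cyp7b1, the oxysterol hydroxylase of the alternative pathway, was at 102, 129 and 102 CPM in males and 16.3, 12.6 and 18.5 CPM in females (-2.81, SE 0.30, adjusted p = 9.83e-05). Cyp7a1, the rate-limiting enzyme of the classic pathway, was at 176, 191 and 257 CPM in males and 65.0, 44.6 and 57.8 CPM in females (-1.90, SE 0.48, adjusted p = 0.025), a call lost without any 1 of the 6 livers (up to 0.0995). In steroid metabolism Cyp17a1, which makes androgen precursors, was at 321, 259 and 393 CPM in females and 71.3, 30.1 and 76.0 CPM in males (2.45, SE 0.36), and Hsd3b2 was higher in males (-2.01, SE 0.23) alongside Hsd3b5.

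Carbohydrate and amino acid genes had scattered differences. Ppp1r3g, which targets a phosphatase to glycogen, was at 13.3, 16.7 and 19.7 CPM in females and 0.728, 1.54 and 1.67 CPM in males (3.65, SE 0.63, adjusted p = 0.00345). The gluconeogenic genes Pck1 (0.09, SE 0.32, adjusted p = 0.898) and G6pc (1.03, SE 0.34, adjusted p = 0.0758) did not pass the test. Without the second female liver G6pc was called (1.34, adjusted p = 0.0201). The log2 difference of Pck1 turned to -0.12, -0.08 and -0.11 without the third female, the first male and the second male liver. Of 49 genes of the urea cycle and amino acid breakdown, 3 were higher in females and 6 in males (18.4% in all, beside 10.4% of all autosomal genes). Csad, which makes taurine, was at 125, 131 and 122 CPM in males and 22.1, 30.9 and 23.3 CPM in females (-2.31, SE 0.40, adjusted p = 0.00386), and Got1, aspartate aminotransferase, at 709.9, 481 and 717 CPM in females and 276, 200.2 and 184 CPM in males (1.53, SE 0.30). Chpt1, a choline phosphotransferase, was higher in males (-1.31, SE 0.18). Of 17 genes of heme and iron 3 were called (17.6%, beside the same 10.4%), Cpox, Fech and the iron exporter Slc40a1, all higher in males, and each lost its call in at least 5 of the 6 fits that leave out a liver (adjusted p up to 0.0916, 0.133 and 0.121). Gclc, the rate-limiting enzyme of glutathione synthesis, had 117, 162 and 157 CPM in females and 208, 271 and 231 CPM in males, a gap with no overlap that did not pass the test (-0.71, adjusted p = 0.105).

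The regulators named in the background above were measured as well. Cux2 (GRCm38 chr5:121856366-122050102), a repressor of male genes, was at 14.7, 46.4 and 60.4 CPM in females and 0.429, 0.621 and 0.413 CPM in males (6.36, SE 0.82, adjusted p = 0.000456), with the first female liver the lowest of its sex and still far above the males. Trim24, a nuclear receptor cofactor, was at 52.6, 61.7 and 52.2 CPM and 23.5, 22.6 and 24.0 CPM (1.25, SE 0.13), and the high mobility group factor Tox at 21.9, 21.5 and 18.8 CPM and 4.99, 5.97 and 5.14 CPM (1.95, SE 0.16). Bcl6, which opposes STAT5 in males, had 35.4, 15.1 and 101 CPM in males and 7.26, 4.44 and 5.28 CPM in females: every male liver was above every female one, the males ranged widely, and the test was not passed (-3.15, SE 1.00, adjusted p = 0.0658). Stat5b itself (-0.18, SE 0.15, adjusted p = 0.496) and Hnf4a (0.24, SE 0.18, adjusted p = 0.467) did not pass the test. The growth hormone receptor Ghr was higher in males (-0.58, SE 0.13, adjusted p = 0.0142), a call lost without the first female or the second male liver (up to 0.0599), and Prlr, the prolactin receptor, had 158, 145 and 211 CPM in females and 94.9, 79.7 and 96.9 CPM in males and missed the threshold (0.92, adjusted p = 0.0549). Of 63 regulators tested 10 were called (15.9%, beside 10.4% of all autosomal genes).

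Cells other than hepatocytes and the clock were examined beside these results. Of 12 Kupffer cell and macrophage markers 5 were called, of 13 stellate cell and fibroblast markers 5, and of 4 tested lymphocyte markers 2, every one higher in females. These are 41.7%, 38.5% and 50% of short lists, beside 10.4% of all autosomal genes, and of 12 endothelial markers 1 was called (8.33%, near that share). The summed stellate markers lay between 643 and 734 CPM in females and between 414 and 455 CPM in males, and the endothelial ones between 541 and 594 CPM and between 352 and 486 CPM. Clec4f, a receptor that marks Kupffer cells, was at 162, 190.3 and 212 CPM in females and 91.9, 119 and 86.4 CPM in males (0.93, SE 0.20), a call lost without the first or the third male liver (adjusted p up to 0.0619). Dcn, a stellate cell and fibroblast proteoglycan, was at 193, 232 and 178 CPM and 124, 119 and 103 CPM (0.80, SE 0.14). The 2 called lymphocyte markers were the immunoglobulin genes Ighm and Igkc, and the 4 tested of 15 in that list summed to between 25.3 and 38.8 CPM in females and between 14.4 and 23.0 CPM in males, while Cd3e and Ms4a1 were below the filter. Of 10 bile duct cell markers 4 were tested (Sox9, Spp1, Sox4 and Tm4sf4) and none was called, with sums between 139 and 169 CPM in females and between 114 and 135 CPM in males, and Krt7, Krt19 and Epcam were below the filter. Of 7 adipocyte markers Fabp4 and Adipor2 were tested, of 12 exocrine pancreas markers Cela1 alone, and none of these was called, while Adipoq, Plin1, Cela2a and Pnlip were below the filter. Of 19 clock genes 3 were called (15.8%, beside 10.4% of all autosomal genes). Bhlhe40 was higher in females (0.81, SE 0.14), and Bhlhe41 (-1.75, SE 0.41) and Hlf (-0.56, SE 0.14) were higher in males. Neither of the latter was stable: Bhlhe41 lost its call without the first or second liver of either sex (adjusted p up to 0.0777), and Hlf without the first or second female or the second or the third male liver (up to 0.109). Whether the share of these cells or the time of collection had a part in the differences of other genes was not tested.

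The difference between the sexes was also measured in the 6 livers on statin, which is another treatment and no repeat of the chow comparison. The statin contrast shares the estimate of spread and the filter on low counts with the chow contrast. There, 714 autosomal genes (6.16%) were called between the sexes. Of the 1203 genes called on chow, 1085 (90.2%) had the same sign on statin, 421 were called in both with the same sign (35.0% of the chow calls and 59.0% of the statin calls), and 1 was called in both with opposite signs. Among drug metabolism and secreted proteins 69 of 70 and 52 of 54 called genes had the same sign on statin, and 45 and 38 were called again. In metabolism 70 of 96 had the same sign and 19 were called again. Of the called genes, 13 in drug metabolism, 6 among secreted proteins and 2 in metabolism had passed the filter through the 6 livers of 1 sex alone, its 3 statin livers included, so that the filter itself bears on their sign on statin. Without them 56 of 57, 46 of 48 and 68 of 94 had the same sign, and 32, 32 and 17 were called again. The median size of the difference was 1.11 on chow in these 96 genes and 0.27 in the chow direction on statin, while in drug metabolism it was 1.92 and 1.56, and since the genes were chosen by their chow values some decline is built in.

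**Figure D5:**
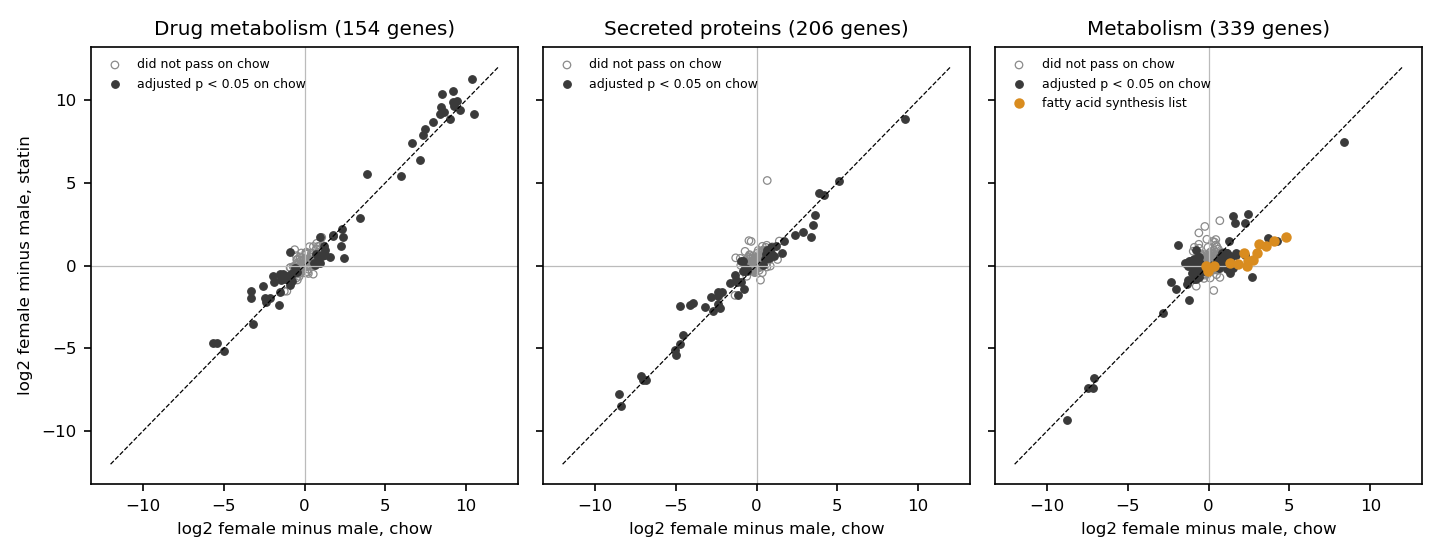
The log2 difference, female minus male, of each tested gene in the chow livers (x axis) and in the statin livers (y axis), in panels for drug metabolism (154 genes), secreted proteins (206) and metabolism (339), with genes called on chow filled and the dashed line at equal differences. Points of the first panels follow the line out to both ends, and the fatty acid synthesis genes (orange) lie far below it, with a list median of 2.39 on chow and 0.30 on statin.

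Cyp3a41a, which passed the filter through female livers alone, was at 264, 210.2 and 270.5 CPM in females and 0.267, 0.406 and 0.273 CPM in males on statin (log2 difference 9.61), Hsd3b5 at 1.22, 0.992 and 0.775 CPM and 205, 156 and 136 CPM (-7.37), and the summed Mup genes differed by -3.12 against -3.06 on chow. Among the other sums given above, Saa1 and Saa2 differed by 4.47 on statin (4.44 on chow) and the Serpina1 genes by -0.54 (-0.66), whereas the Orm genes differed by 0.85 (1.68), the Sult2a genes by -0.44 (-1.10), the Gstm genes by 0.03 (0.73) and the Cyp2c genes by 0.19 (-0.28). The unadjusted p of the difference between diets was 0.223 for Cyp3a41a and 0.49 for Hsd3b5. In both lists of fatty acid oxidation the median changed sign: it was -0.44 on chow and 0.21 on statin over the 22 mitochondrial genes and -0.57 and 0.13 over the 31 peroxisomal and omega-oxidation genes, and 17 genes of each list had an unadjusted p under 0.05 for the difference between diets. In fatty acid synthesis, Fasn was at 1096, 1763 and 242 CPM in females and 533, 287 and 539 CPM in males on statin (1.19, adjusted p = 0.254), where the third female liver was the lowest of the 6. Cyp7a1 had 142, 153 and 621 CPM in females and 99.6, 131 and 164 CPM in males, with the sign turned and the third female liver far above the rest (1.22, adjusted p = 0.163). The test of the difference between the chow and statin contrasts called 0 genes (0%) in edgeR (lowest adjusted p = 0.0997 over the table), with 940 (8.11%) at an unadjusted p-value under 0.05 and 120 called by DESeq2 and 0 by limma. Of all 1203 chow calls 404 (33.6%) were among those unadjusted ones, beside 59 of 96 (61.5%) in metabolism and 16 of 70 (22.9%) in drug metabolism. For Fasn the unadjusted p of this test was 0.00978 (adjusted p = 0.405), and for Cyp7a1 0.000512 (0.24).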

How the data were processed

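Poly(A) RNA of 12 livers was sequenced from strand-specific libraries. Per the submitters' processing notes, reads were aligned with STAR 2.4.1a to GRCm38, counted with HTSeq and processed in edgeR 3.28.1; whether counting used strand is not given in the sources used here. The authors deposited counts per gene for 11968 genes, in a table described as normalized that holds raw counts, and a table of CPM for 48526 genes, of which the former are the genes over 1 CPM in at least 6 livers, as checked on the files. CPM values were turned back into reads and matched the counts.

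Genes were placed with the GENCODE vM21 annotation, and 11584 on autosomes are reported. Counts were scaled by TMM and fitted in edgeR 4.0.16 (R 4.3.3) with glmQLFit over 4 groups of 3 livers, without covariates (common dispersion 0.0380, prior degrees of freedom 4.14). p-values were adjusted by Benjamini-Hochberg over the table, with a threshold of 0.05, and all are two-sided. Limma 3.58.1 and DESeq2 1.42.0 served as alternatives beside other scalings and filters, a replicate block and leaving out each liver. The fit was tested on simulated data. Tables, sums, promoters and plots used Python 3.11.15, numpy 2.4.6, pandas 2.3.3, scipy 1.17.1 and matplotlib 3.10.9.

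Named were the 10 genes per sex with the smallest p-values among called genes that did not overlap and whose higher mean was at least 10 CPM, up to 3 called genes per list and direction with the largest difference, and 20 key genes called or not. Some genes that the rule names are not reported here. Members and lists were chosen with earlier results of these data known. Sums over gene families were added after values were seen. So were the members of families or lists named outside the rule (Hp, Orm2, Cyp3a44, Mup3, Mup18, Slc22a30, Csf3r, Mdh2, Pdhb and genes named only as examples of markers).

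The total count per chow liver was between 46066381 and 60048292. No pair of chow livers of the same sex agreed within sampling noise.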

Additional observations from a re-analysis of the deposited data

How the results depend on the processing

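Of 185 named genes, 172 were called, 108 of them under every alternative and 136 under every alternative other than leaving out a liver. DESeq2 called more genes than edgeR between the sexes on chow (1876, of them 1022 higher in females and 854 in males), with 83 among secreted proteins, 1236 on statin and 120 for the difference between diets. A fit of the chow livers only gave 2077 calls (1102 and 975). Counting only genes over a higher minimum gave 747 (408 and 339) and 340 on statin, with fewer genes tested. With no filter 1460 genes were called, and 101 for the difference between diets. The correction for gene length gave 1416 calls. Scaling by library size alone gave 534 calls higher in females and 644 in males. Leaving out each chow liver in turn gave between 613 and 862 calls, 317 to 470 higher in females and 288 to 392 in males, with 48 to 76 calls in metabolism, 56 to 65 in drug metabolism and 43 to 48 among secreted proteins; fewer livers are then in the fit. The log2 difference of Pck1, which did not pass the test, was 0.09 and turned to -0.12, -0.08 and -0.11 without the third female, the first male and the second male liver, within a range of -0.12 to 0.57. Beyond what fewer genes or livers explain, the cause was not tested.

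With the replicate number as a replicate block, 866 genes were called (485 and 381), 852 of them shared with the fit without it. The numbers do not pair the livers: deviations from the group means of same-numbered chow livers had correlations of -0.42, -0.07 and -0.08 across genes. At the depth of these libraries 3 counts are between 0.05 and 0.0651 CPM, which limits statements on genes that one sex hardly uses, and 3 livers a group cannot reach an exact permutation p below 0.1.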

Other observations

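Below the filter of 1 CPM in at least 6 livers lay 13564 autosomal genes with a read in some liver, and 60 of them were over 1 CPM in all 3 chow livers of a sex. Among these, 2 had at most 3 reads in each liver of the other sex. Plekhd1, on chromosome 12, was at 13.2, 9.70 and 4.60 CPM in the female chow livers and at 0.0383, 0.0167 and 0.0183 CPM in the males, while the female livers on statin had 2.38, 1.84 and 0.0550 CPM. Gm45792, annotated as antisense, was at 1.19, 1.38 and 1.5 CPM in the male chow livers and at 0.0363, 0.0399 and 0 CPM in the females. These genes entered no test.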
